A study of Mus musculus with 6 samples.

Results

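The genes described here are 10 members of the BCL2 family: the pore-forming effectors Bax, Bak1 and Bok, the anti-apoptotic guardians Bcl2, Bcl2l1 (which encodes BCL-XL) and Mcl1, and the BH3-only genes Bid, Bbc3 (PUMA), Pmaip1 (NOXA) and Bcl2l11 (BIM). They were chosen by gene symbol, 10 of the 55416 genes in the deposited table, by a rule that names no measured value. The list was drawn up with earlier results of these data known, so shares of members beside those of all genes are descriptions only. RNA-seq was performed on primary chondrocytes from mouse knee joints that were transfected with a scrambled siRNA (siNC) or with an siRNA against Pkm2 (siPKM2), 3 libraries in each group, to see how silencing of this pyruvate kinase isoform changes the chondrocyte transcriptome. The cells of both groups were grown in DMEM/F12 with serum. The labels name neonatal mice as the source, whereas the study's methods describe chondrocytes from older mice, so the age of the donors was not settled here. The genotype given for the control is WT. For the silenced cells it reads PKM2 knockdown in replicate 1, PKM3 knockdown in replicate 2 and PKM4 knockdown in replicate 3, while the titles of all 3 name siPKM2, and the titles were followed.

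The BCL2 family decides whether the outer mitochondrial membrane stays closed. BAX and BAK, once activated, form pores through which cytochrome c leaves the mitochondrion and starts the caspase cascade. BCL2, BCL-XL and MCL1 hold them in check, and BH3-only proteins, made or modified under stress, engage both sides. In cartilage the family is studied as part of the loss of chondrocytes in osteoarthritis, and much of its control lies in protein turnover and modification, which RNA levels do not show.

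Libraries held between 22317065 and 25691096 counts. Pkm, the targeted gene, stood at 1654, 2209 and 1293 TPM (a level per transcript length, scaled to the same total in each library) in siNC replicates 1, 2 and 3 and at 245, 428 and 231 TPM in siPKM2 replicates 1, 2 and 3. Its level was lower in every siPKM2 library, and gene-level counts do not separate the PKM1 and PKM2 isoforms. Pkm shares 767 exon bases with Gm49759 on the same strand, a gene with up to 4508 counts a library. All 12 chondrocyte markers reached 1 TPM, but replicate 2 of both groups stood apart, with a summed chondrocyte marker level of 4041 TPM in siNC and 5428 TPM in siPKM2 against 15618 to 18680 TPM in the other libraries. Same-numbered libraries varied together, so the comparison was run without a block and with replicate numbers as one.

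The study's supplement lists 3 siRNAs against Pkm2 and states that the third was selected, but no source ties a number to the sequenced cultures. The guide strands of the scrambled siRNA and of the third siRNA are shown because a guide can also bind other transcripts through its seed, and capitals mark the seed, bases 2 to 8 from the 5′ end.
scramble siNC: aCGUGACAcguucggagaatt
siPkm2 #3: uGUUUCUCcagacagcaugtt
The 19-base target of siPkm2 #3 lies in an exon of Pkm on the plus strand, chr9:59672010-59672028 on GRCm38, and 4 of 11 annotated Pkm transcripts hold it. No member had the letters that pair with the scrambled seed, TGTCACG, in its longest annotated 3′ untranslated region, against 3.5% of the 13273 tested genes with such a region. Those that pair with the siPkm2 #3 seed, GAGAAAC, occurred in 2 of 10 members, Mcl1 and Pmaip1, against 17.9% of all. Bax and Bak1 had no match to the seed of any of the 3 siPkm2 guides. A match is a description of letters, and binding was not measured.

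On GRCm38 (GENCODE M21), the effectors lie at chr7:45461697-45466898 (Bax, minus strand), chr17:27019810-27029009 (Bak1, minus) and chr1:93685660-93695764 (Bok, plus). The guardians lie at chr1:106538178-106714274 (Bcl2, minus), chr2:152780668-152831728 (Bcl2l1, minus) and chr3:95658788-95663176 (Mcl1, plus). The BH3-only genes lie at chr6:120891930-120916853 (Bid, minus), chr7:16308393-16318205 (Bbc3, plus), chr18:66458533-66465565 (Pmaip1, plus) and chr2:128126038-128162547 (Bcl2l11, plus). All 10 are annotated as protein-coding.

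Across the family, the levels of Bax and Bak1 were higher in every siPKM2 library than in any siNC library. Bcl2l1 was higher in siPKM2 within each replicate number, and Bok and Bcl2l11 were lower within each replicate number. Bcl2, Mcl1, Bid, Bbc3 and Pmaip1 had no common direction within replicate numbers, in TPM or in CPM. All 10 members passed the filter on low counts. With edgeR's quasi-likelihood test and no block, 0 of 10 members were called at a fold over 2 with an adjusted p under 0.05, in a comparison in which 0% of the 15269 genes tested were called higher and 0% lower. Pkm, the silenced gene, was not called in that fit either, at a log2 fold change of -2.51 (edgeR without the block, adjusted p = 0.0738). At an unadjusted p under 0.05 there were 2 members, Bax and Bak1, and 2690 genes in all. DESeq2 called 1 member, Bak1, and 430 genes, and limma on log2(TPM + 1) called 0 members and 1 gene.

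The count of calls changed with the block. In the fit with replicate number as a block, edgeR called 1 of 10 members higher at a fold over 2, Bak1, where 2.65% of all genes were called higher, and 0 of 10 lower, where 3.18% were called lower. At an adjusted p under 0.05 with no threshold on the fold, 3 of 10 members were higher, Bak1, Bax and Bcl2l1, where 12.3% of all genes were higher, and 0 of 10 were lower, where 10.8% were lower. At an unadjusted p under 0.05 in that fit, 3 members were higher, where 21% of all genes were, and 2 were lower, Bok and Bcl2l11, where 19.6% were. By DESeq2 without the block the shares of all genes at a fold over 2 were 1.08% higher and 1.71% lower, with Bak1 the one member among them. Without the threshold on the fold, DESeq2 gave 2.5% higher, Bak1 and Bax among them, and 2.88% lower, with 0 members.

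Directions can also be read without a model. In counts scaled by library size and TMM factors (CPM), 2 of 10 members, Bax and Bak1, had all siPKM2 libraries above all siNC libraries, where 12% of all genes did, and 0 of 10 had them below, where 12.3% did. Within replicate numbers, 3 of 10 members were higher in siPKM2 in all 3 pairs, Bak1, Bax and Bcl2l1, against 30.5% of genes. There were 2 of 10 that were lower in all 3 pairs, Bok and Bcl2l11, against 30.6%. The family thus held no larger a share of genes with 1 direction in all 3 pairs than the table did. The median log2 fold change of the members was 0.10, beside -0.02 over all genes tested, and with the block 0.28 beside -0.01.

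**Figure D1:**
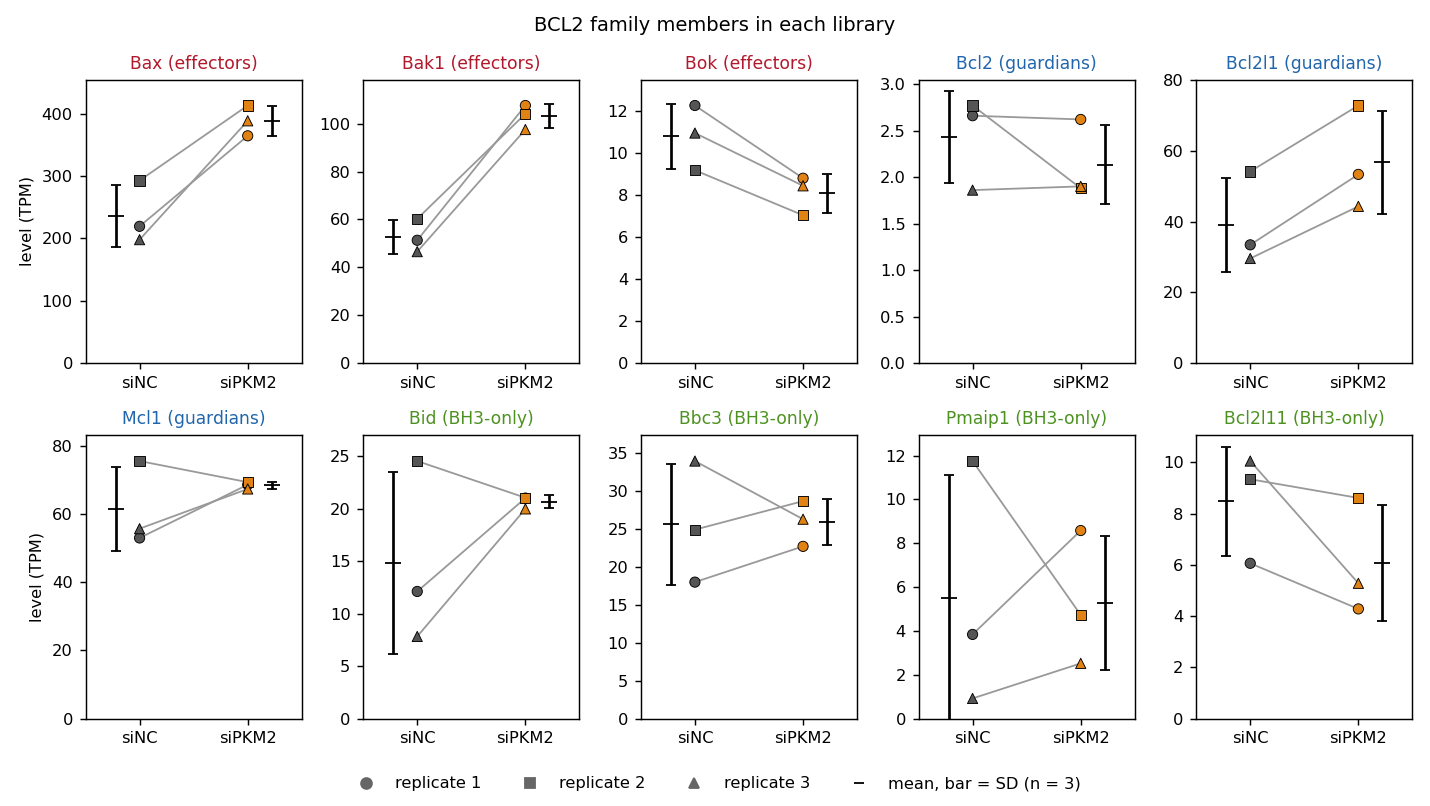
Level in TPM of the 10 members in each library, with a panel and its own axis from 0 for each gene, siNC on the left and siPKM2 on the right of each panel. Lines join libraries with the same replicate number, symbols mark that number, and bars give the mean and SD of 3 libraries, cut at 0 for Pmaip1 in siNC. The 3 siPKM2 libraries lie above the 3 siNC libraries for Bax and Bak1, and below them for Bok.

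Bax encodes the effector that moves from the cytosol to mitochondria, and it had the highest level of the family. It was measured at 219, 293 and 198 TPM in siNC replicates 1, 2 and 3 and at 365, 413 and 389 TPM in siPKM2 replicates 1, 2 and 3. The highest siNC library, replicate 2, lay below the lowest siPKM2 library, replicate 1. Means were 237 ± 49.7 TPM (SD, n = 3) and 389 ± 24.3 TPM (SD, n = 3). In counts the log2 fold change was 0.74 with a standard error of 0.17 (edgeR, adjusted p = 0.136 over all genes), and 0.76 with the block (adjusted p = 0.0165). With 3 libraries against 3 the exact two-sided permutation test on TPM gave p = 0.1, the smallest value this design allows.

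Bak1 encodes BAK, the effector that resides in the outer mitochondrial membrane, and it had the largest fold change of the members. Its level was 51.3, 60.3 and 46.5 TPM in siNC replicates 1, 2 and 3 and 108, 104 and 97.5 TPM in siPKM2 replicates 1, 2 and 3. The groups were far apart relative to their spread, at 52.7 ± 6.97 TPM and 103 ± 5.1 TPM (SD, n = 3 each). On the log2 scale the fold change in counts was 1.02 with a standard error of 0.14, with an adjusted p of 0.0738 by edgeR without the block and 0.00942 with it. The 3 pairs gave log2 ratios of CPM of 1.04, 0.95 and 1.07. The exact permutation test again gave p = 0.1. The fitted fold was 2.03, close to the threshold of 2, and with upper-quartile factors, which moved the median of all genes by -0.067, it was 1.94, with an adjusted p of 0.0825 by edgeR. In the fits with all 6 libraries, Bak1 was called wherever its adjusted p was under 0.05. With upper-quartile factors and by limma on TPM its fold was also under 2.

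The adjusted p-values of both genes with the block depended on which pair of libraries was present. Without replicate 2 they were 0.000326 for Bak1 and 0.0015 for Bax by edgeR, without replicate 1 they were 0.0642 and 0.0881, and without replicate 3 they were 0.0869 and 0.109. The fold changes moved less: across the 18 alternative fits the log2 fold change of Bak1 lay between 0.94 and 1.09, and that of Bax between 0.61 and 0.89. Bax shares 192 exon bases with Gm45808 on the same strand, a gene with at most 9 counts a library, and Bak1 shares 437 with Ggnbp1 on the opposite strand, with at most 93 counts.

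Bok, the effector that is held low mainly by degradation of its protein, stood at 12.3, 9.17 and 10.9 TPM in siNC replicates 1, 2 and 3 and at 8.79, 7.03 and 8.43 TPM in siPKM2 replicates 1, 2 and 3. The groups did not overlap in TPM, but in CPM they did, because siPKM2 replicate 1 at 6.71 CPM lay above siNC replicate 2 at 6.35 CPM. Its fitted log2 fold change was -0.44 with a standard error of 0.27 (edgeR, adjusted p = 0.441), and -0.43 with the block (adjusted p = 0.111). Bok was therefore the one effector whose fitted change was below 0, at a level many times under that of Bax.

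The start regions of Bax and Bak1 are shown because these genes were the members whose groups did not overlap in CPM. Each window runs from 250 bases before to 50 bases after the annotated start, on the minus strand of GRCm38.p6, as taken from RefSeq. Capitals mark matches, on either strand, to the motifs searched: the GC box GGGCGG, the E-box CACGTG, the CCAAT box, the TATA box TATAAA, the interferon-stimulated response element core GAAANNGAA, the ATF4 and C/EBP core TGATGNAA, and the p53 half-site. No matches overlapped in the Bax window.
Bax, chr7:45466849-45467148: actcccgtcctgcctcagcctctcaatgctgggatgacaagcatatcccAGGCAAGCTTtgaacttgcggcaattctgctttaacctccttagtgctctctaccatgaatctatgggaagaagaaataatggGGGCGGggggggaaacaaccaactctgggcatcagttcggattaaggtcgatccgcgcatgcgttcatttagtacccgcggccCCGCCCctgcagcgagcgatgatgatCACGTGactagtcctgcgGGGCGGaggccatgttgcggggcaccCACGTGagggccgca
Bak1, chr17:27028578-27028877: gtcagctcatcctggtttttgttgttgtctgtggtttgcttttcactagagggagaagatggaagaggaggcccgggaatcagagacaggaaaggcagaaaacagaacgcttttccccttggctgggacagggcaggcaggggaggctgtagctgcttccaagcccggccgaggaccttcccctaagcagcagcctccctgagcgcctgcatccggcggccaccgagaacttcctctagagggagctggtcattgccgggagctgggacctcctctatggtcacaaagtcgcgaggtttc
The Bax window held 3 GC boxes, 2 E-boxes and 1 p53 half-site match, AGGCAAGCTT. The Bak1 window held no match to any motif searched, at a similar GC content of 58.3% against 57.3%. The Bak1 window lies wholly inside the GENCODE Bak1 gene, which reaches chr17:27029009. The Bax window reaches past the end of the GENCODE Bax gene at chr7:45466898, so these windows are not placed alike. Of 32851 RefSeq windows of this length, 35.7% held a GC box, 7.2% an E-box and 8.4% a p53 half-site match. Windows were found for 9 of 10 members, 14 windows in all. A GC box was present in 10 of the 14 windows, from 7 members, and an E-box in 2, from Bax and Bbc3. A CCAAT box was present in 3 of the 14, from Bbc3 and Bcl2l11, against 37.4% of all windows. Windows of the same member can overlap, as for Bbc3. None of the 14 held the interferon core, found in 8.6% of windows, a TATA box, found in 13.6%, or the ATF4 and C/EBP core, found in 4.0%. These are counts of letters in these windows, with no statement on the factors.

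Of the guardians, Bcl2l1 differed most between the groups. BCL-XL, its product, binds BAX and BAK. Its level was 33.4, 54.2 and 29.6 TPM in siNC replicates 1, 2 and 3 and 53.4, 72.9 and 44.3 TPM in siPKM2 replicates 1, 2 and 3. The groups overlapped, since siNC replicate 2 lay above siPKM2 replicates 1 and 3, but siPKM2 was higher within each replicate number. In the 3 pairs the log2 ratios of CPM were 0.67, 0.55 and 0.66. In counts the log2 fold change was 0.62 with a standard error of 0.26 (edgeR, adjusted p = 0.292), and 0.63 with a standard error of 0.08 with the block (adjusted p = 0.0132). Without replicate 1 the blocked adjusted p was 0.0845, and without replicate 3 it was 0.106 (edgeR).

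Mcl1 encodes a guardian with a very short-lived protein, and it had the highest RNA level of the guardians in both groups. It stood at 52.99, 75.6 and 55.7 TPM in siNC replicates 1, 2 and 3 and at 68.6, 69.4 and 67.4 TPM in siPKM2 replicates 1, 2 and 3. The siPKM2 libraries, at 68.5 ± 1.01 TPM (SD, n = 3), lay inside the range of the siNC libraries. Its fitted log2 fold change was 0.22 with a standard error of 0.15 (edgeR, adjusted p = 0.517), and with the block 0.23 (adjusted p = 0.194). Without replicate 2 the blocked value was 0.36 (adjusted p = 0.0141). The Mcl1 match to the siPkm2 #3 seed lay at base 1562 of the 2353-base 3′ untranslated region, chr3:95662385-95662391 on the plus strand of GRCm38, and is given here with 10 bases on each side, the match in capitals.
Mcl1: cttaagtttaGAGAAACactgggtttt

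Bcl2, the founding guardian, had the lowest level of the 10 members, at 2.66, 2.77 and 1.86 TPM in siNC replicates 1, 2 and 3 and 2.62, 1.88 and 1.9 TPM in siPKM2 replicates 1, 2 and 3. These values rested on 186 to 311 counts a library. The groups overlapped almost fully. Counts gave a log2 fold change of -0.16 with a standard error of 0.26 (edgeR, adjusted p = 0.805), and -0.16 with the block (adjusted p = 0.505).

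Bid, whose product is cleaved by caspase-8 and links death receptors to mitochondria, stood at 12.1, 24.6 and 7.83 TPM in siNC replicates 1, 2 and 3 and at 21.02, 21.05 and 19.99 TPM in siPKM2 replicates 1, 2 and 3. The siPKM2 libraries were nearly equal, while the siNC libraries spread widely, with replicate 2 above every siPKM2 library. Counts gave a log2 fold change of 0.57 with a standard error of 0.35 (edgeR, adjusted p = 0.454), and 0.67 with the block (adjusted p = 0.133). Without replicate 2 the blocked value was 1.04 (adjusted p = 0.00526). Exons of Bid share 628 bases with Bcl2l13 on the opposite strand, a gene with up to 1531 counts a library. The strand setting of the counting is not given in the sources used here.

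Bbc3 encodes PUMA, a direct p53 target that binds every guardian. Its level was 17.98, 24.9 and 33.9 TPM in siNC replicates 1, 2 and 3 and 22.7, 28.7 and 26.3 TPM in siPKM2 replicates 1, 2 and 3. The siPKM2 libraries lay inside the siNC range. In counts the log2 fold change was -0.02 with a standard error of 0.22 (edgeR, adjusted p = 0.972), and -0.02 with the block (adjusted p = 0.936).

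Pmaip1 encodes NOXA, which binds MCL1, and it was the most variable member. It stood at 3.84, 11.8 and 0.92 TPM in siNC replicates 1, 2 and 3 and at 8.58, 4.73 and 2.52 TPM in siPKM2 replicates 1, 2 and 3, from 33 to 441 counts a library. Replicate 2 went against the other pairs: the log2 ratios of CPM were 1.07, -1.31 and 1.53. The log2 fold change in counts was -0.04 with a standard error of 0.86 (edgeR, adjusted p = 0.989), with the block 0.34 (adjusted p = 0.689), and without replicate 2 it was 1.23 with the block (adjusted p = 0.0055). Its direction thus differed between fits and between pairs.

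Bcl2l11 encodes BIM, which binds all guardians and can activate BAX directly. It was the member with the lowest fitted change, at 6.06, 9.34 and 10.1 TPM in siNC replicates 1, 2 and 3 and 4.28, 8.61 and 5.28 TPM in siPKM2 replicates 1, 2 and 3. The groups overlapped, and siPKM2 was lower within each replicate number. The log2 fold change in counts was -0.54 with a standard error of 0.33 (edgeR, adjusted p = 0.446), and -0.51 with the block (adjusted p = 0.108).

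**Figure D2:**
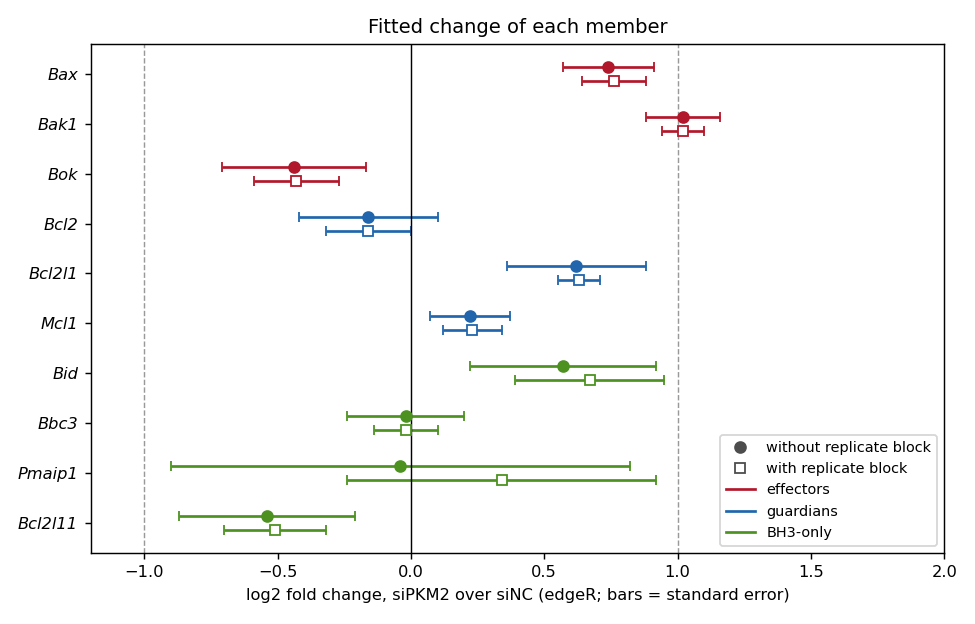
Fitted log2 fold change of counts in siPKM2 over siNC for each member, by edgeR without the replicate block (filled) and with it (open), with bars for the standard error and dashed lines at a fold of 2. Bak1 lies at 1.02 in both fits, and Pmaip1 has the widest bars and moves from -0.04 to 0.34.

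The order of the levels per transcript length changed between the groups below Bax. In siNC, Bax at 237 TPM was separate from Mcl1 at 61.4 ± 12.3 TPM, and from there down each gene overlapped its neighbour: Bak1 at 52.7 TPM, Bcl2l1 at 39.1 TPM, Bbc3 at 25.6 TPM, Bid at 14.8 TPM, Bok at 10.8 TPM, Bcl2l11 at 8.48 TPM, Pmaip1 at 5.50 TPM and Bcl2 at 2.43 TPM (means of n = 3). In siPKM2, Bak1 stood second at 103 TPM, and its libraries were separate from those of Bax above it and of Mcl1 below it, at 68.5 ± 1.01 TPM. The libraries of Mcl1 overlapped those of Bcl2l1 at 56.8 TPM. Bbc3 at 25.9 TPM and Bid at 20.7 TPM were separate from each other and from their neighbours, and Bok, Bcl2l11, Pmaip1 and Bcl2, from 8.08 to 2.13 TPM, overlapped in turn.

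Summed by role, the effectors reached 283, 362 and 255 TPM in siNC replicates 1, 2 and 3 and 481, 524 and 495 TPM in siPKM2 replicates 1, 2 and 3. The groups did not overlap, with a ratio of means of 1.67. The guardians summed to 89.1, 133 and 87.2 TPM in siNC and to 125, 144 and 114 TPM in siPKM2, and the BH3-only genes to 40.0, 70.5 and 52.7 TPM and to 56.6, 63.0 and 54.1 TPM, in the same order of replicates. Both of these sums overlapped between the groups. The sums hold only the 10 members, so genes with the same roles, such as Bcl2l2 and Bad, are left out. Bad alone lay between 76.3 and 94.1 TPM in siNC and between 58.1 and 68.1 TPM in siPKM2. Bax alone made up between 75.8% and 80.8% of the effector sum in every library, so that sum is mainly a measure of Bax.

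The ratio of effector to guardian TPM was 3.18, 2.73 and 2.93 in siNC replicates 1, 2 and 3 and 3.86, 3.64 and 4.35 in siPKM2 replicates 1, 2 and 3. It was higher in siPKM2 within each replicate number and did not overlap, at 2.95 ± 0.222 against 3.95 ± 0.366 (SD, n = 3 each). With Mcl1 left out the ratio was 7.44 ± 0.948 against 8.77 ± 1.85 (SD, n = 3 each) and the groups overlapped. The ratio of Bax to Bak1 went the other way, 4.28, 4.86 and 4.25 in siNC and 3.39, 3.97 and 3.98 in siPKM2, since the fold change of Bak1 was the larger. Among the guardians, Mcl1 held 60.1 ± 3.5% of the sum in siNC and 54.2 ± 5.64% in siPKM2 (SD, n = 3 each), and Bcl2l1 held 37.5 ± 3.48% and 44.1 ± 5.88%. These ratios are descriptions over chosen genes, with no test.

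**Figure D3:**
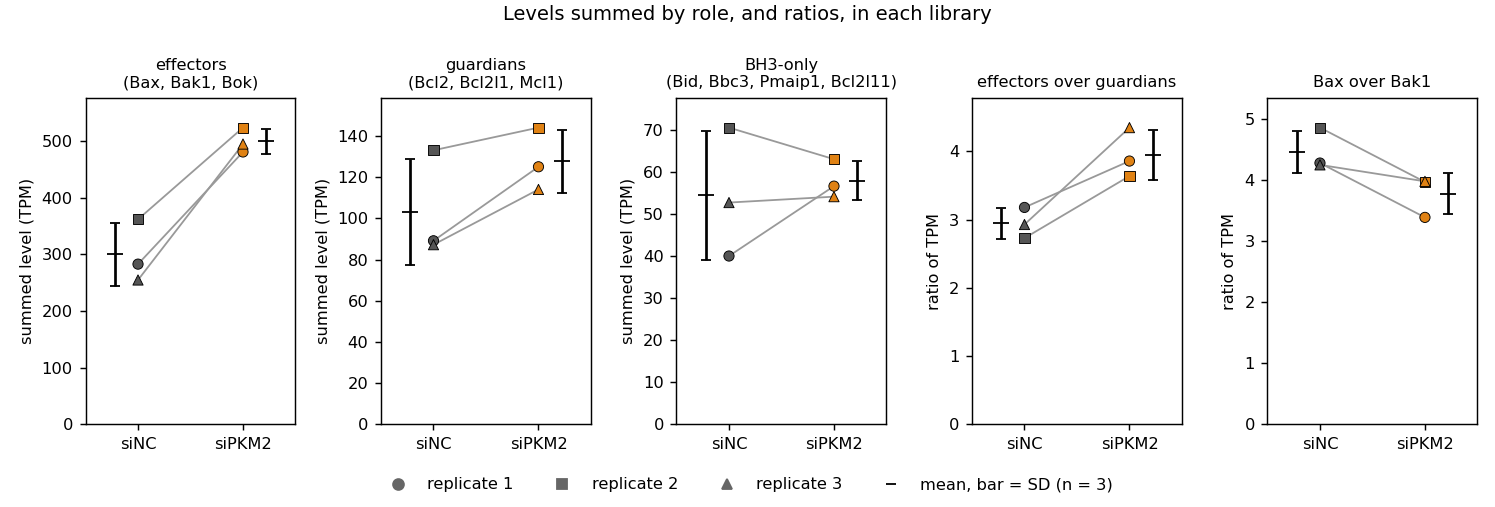
Summed TPM of the effectors, guardians and BH3-only genes among the 10 members, and the ratios of effectors to guardians and of Bax to Bak1, in each library, every axis from 0. Lines join libraries with the same replicate number, and bars give the mean and SD of 3 libraries. Effectors are higher in all siPKM2 libraries (481 to 524 TPM) than in all siNC libraries (255 to 362 TPM), while guardians and BH3-only genes overlap.

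TPM and counts together give the transcript length that the quantification assigned to a gene in each library, which moves when the mix of isoforms moves. Between the groups this length changed by -0.02 (log2) for Bax and 0.01 for Bak1, and 58.2% and 80.7% of genes changed at least as much. For Bcl2l1, which can be spliced to a long or a short form, it changed by 0.02, and 58.4% of genes changed at least as much. Bbc3 had the largest change of the members measured, -0.11, which 13.1% of genes matched or passed. The length is a relative value, and it does not identify isoforms.

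Over the 6 libraries, Bax and Bak1 followed each other with a Pearson correlation of log2 CPM of 0.961. A small offset was added to CPM before the log. The correlation is a description in which the difference between the groups takes part. The genes most like Bax were Sdhd, which encodes a subunit of succinate dehydrogenase, at 0.9993, Gm43863 at 0.9981, and Uap1, which encodes an enzyme that makes UDP-N-acetylglucosamine, at 0.9934. Those most like Bak1 were Nmt1, which encodes an N-myristoyltransferase, at 0.9978, Cap1, which encodes an actin-binding protein, at 0.9966, and Arf3, which encodes a small GTPase, at 0.9959. These were the 3 closest genes to each of the 2, of 15269 tested, over 6 libraries of the same 2 groups. Gm43863 lay at only 0.306 to 1.01 CPM, where the offset weighs heavily in the log.

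Genes of the apoptotic pathway outside the 10 members were read from 6 lists with 47 tested genes. Without the block, 0 of 47 passed an adjusted p under 0.05 by edgeR. At an unadjusted p under 0.05 there were 8 of 47, beside 2690 of the 15269 genes tested. DESeq2 gave 2 of 47 at an adjusted p under 0.05, Cflar (higher) and Sh3glb1 (lower), where 2.5% of all genes were higher and 2.88% lower. With the block, 7 of 47 were higher and 2 of 47 were lower at that threshold, beside the 12.3% and 10.8% of all genes given above, and 0 passed a fold over 2. The median log2 fold change of the 47 without the block was 0.17, beside -0.02 over all genes. Of the 47, 30 were positive, where 48.1% of all genes were.

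The rest of the BCL2 family had 5 tested genes of 13, with 1 higher and 1 lower with the block. Bcl2l2, which encodes the guardian BCL-W, stood at 17.7, 27.3 and 17.3 TPM in siNC replicates 1, 2 and 3 and 29.8, 36.03 and 31.4 TPM in siPKM2 replicates 1, 2 and 3. All its siPKM2 libraries lay above all siNC libraries, with a log2 fold change of 0.67 with the block (edgeR, adjusted p = 0.0205, and 0.202 without the block). Bad, a BH3-only gene regulated by growth factor signalling, stood at 89.8, 76.3 and 94.1 TPM in siNC and 58.1, 61.2 and 68.1 TPM in siPKM2. In TPM it lay below in every siPKM2 library, but in CPM the groups overlapped, at 28.7 in siPKM2 replicate 3 and 27.75 in siNC replicate 2. Its log2 fold change was -0.43 with the block (edgeR, adjusted p = 0.046, and 0.286 without the block). Of the 13 genes, 8 had too few counts to be tested, among them Bcl2a1a, Bik and Hrk.

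Downstream of the pore, the caspases and the apoptosome had 1 of 7 reported genes higher and 0 lower with the block by edgeR. Cycs, which encodes the cytochrome c that leaves through the pore, stood at 23.6, 20.4 and 17.8 TPM in siNC and 38.8, 28.4 and 28.9 TPM in siPKM2, a log2 fold change of 0.68 (edgeR with the block, adjusted p = 0.0133, and 0.206 without it). All its siPKM2 libraries lay above all siNC libraries. Of the 9 genes for other released mitochondrial proteins and inhibitors of apoptosis, 0 passed with the block in edgeR, where 1 was higher and 2 were lower at an unadjusted p under 0.05 (21% and 19.6% of all genes), and 0 passed by DESeq2.

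In the death receptor arm 2 of 8 tested genes were higher with the block and 0 lower. Cflar, which encodes the caspase-8 inhibitor FLIP, stood at 19.9, 31.9 and 28.5 TPM in siNC and 35.97, 51.5 and 33.5 TPM in siPKM2, with a log2 fold change of 0.77 (edgeR with the block, adjusted p = 0.0109, and 0.147 without it). Ripk1, a kinase that acts below death receptors, stood at 21.8, 24.0 and 23.7 TPM in siNC and 30.8, 31.8 and 30.1 TPM in siPKM2, with a log2 fold change of 0.46 (edgeR with the block, adjusted p = 0.0176, and 0.134 without it). Neither gene overlapped between the groups in TPM.

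Partners of BAX and BAK and factors of MCL1 turnover had 1 of 9 tested genes higher and 1 lower with the block. Vdac2, a channel of the outer membrane that binds BAK, stood at 151, 121 and 136 TPM in siNC and 195, 144 and 183 TPM in siPKM2, at 0.38 on the log2 scale (edgeR with the block, adjusted p = 0.0424, and 0.418 without it). Sh3glb1, which encodes the BAX-binding protein endophilin B1, stood at 65.8, 72.3 and 55.7 TPM in siNC and 38.2, 35.0 and 37.3 TPM in siPKM2. It was lower in every siPKM2 library, at -0.76 on the log2 scale (edgeR with the block, adjusted p = 0.0122, and 0.0978 without it).

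Among 9 tested regulators of BCL2 family transcription, 2 were higher with the block and 0 lower. Trp53, which encodes p53, a direct activator of Bax and Bbc3, stood at 92.2, 99.3 and 92.8 TPM in siNC and 111, 130 and 114 TPM in siPKM2, with a log2 fold change of 0.36 (edgeR with the block, adjusted p = 0.0352, and 0.201 without it). Irf1, an interferon-induced factor, stood at 18.4, 59.7 and 24.4 TPM in siNC and 27.9, 83.3 and 42.4 TPM in siPKM2, with a log2 fold change of 0.62 (edgeR with the block, adjusted p = 0.0344, and 0.651 without it). Mdm2, a p53 target that encodes its ubiquitin ligase, stood at 60.1, 200 and 63.5 TPM in siNC and 91.0, 176 and 92.1 TPM in siPKM2, and its 0.47 did not pass (edgeR with the block, adjusted p = 0.113, and 0.823 without it). The Mdm2 groups overlapped, with replicate 2 high in both.

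**Figure D4:**
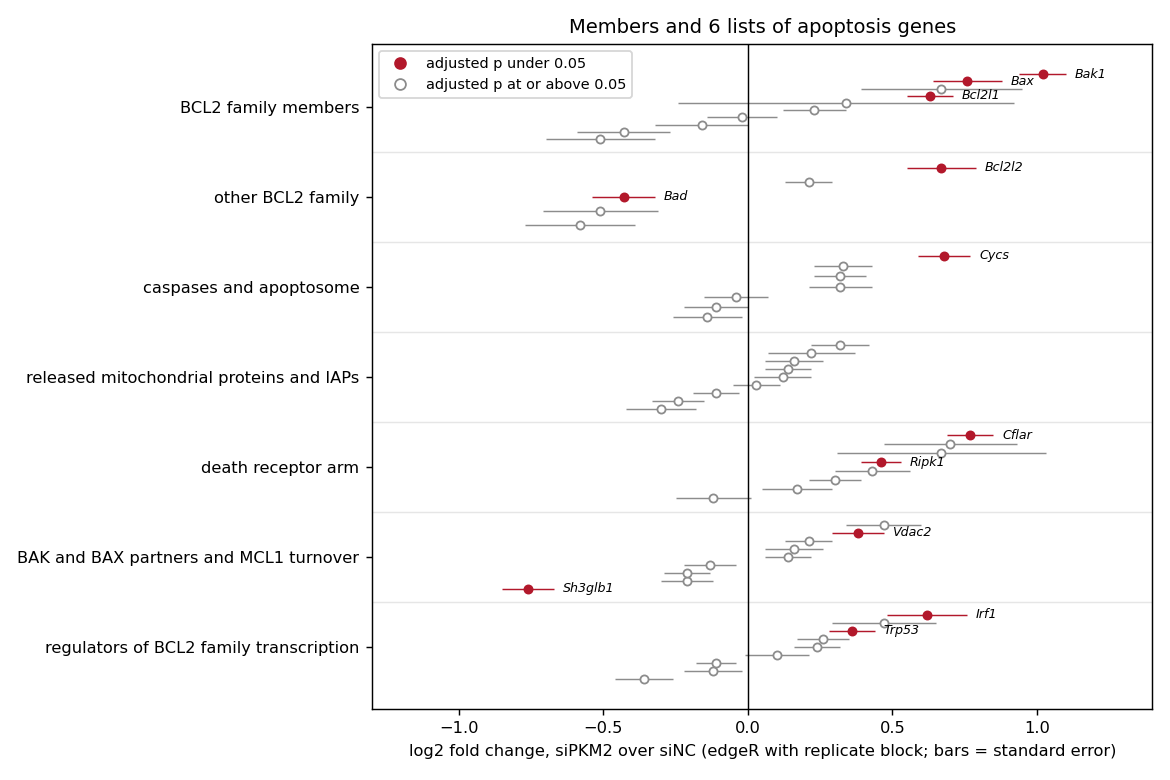
Log2 fold change in siPKM2 over siNC, by edgeR with the replicate block, for the 10 members and the 47 tested genes of 6 apoptosis lists, 1 point a gene with bars for the standard error. Filled points have an adjusted p under 0.05: 3 members (all higher) and 9 list genes (7 higher, 2 lower).

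Markers of other states moved with these results. The summed level of 15 interferon-stimulated genes, all of which reached 1 TPM, was 62.2, 2295 and 106 TPM in siNC replicates 1, 2 and 3 and 1521, 3958 and 1107 TPM in siPKM2 replicates 1, 2 and 3. It was higher in siPKM2 within each replicate number, as were Bax, Bak1 and Bcl2l1. The siNC library with the highest Bax, Bak1, Bcl2l1, Mcl1, Bid and Pmaip1, replicate 2, was also the siNC library with the highest interferon sum. In siPKM2, replicate 2 again had the highest interferon sum, but only some of these members followed it in TPM. Bax and Bcl2l1 were highest in that library, Bak1 and Pmaip1 were highest in replicate 1, and Mcl1 and Bid were nearly level. In siNC replicate 2 Bak1 was at 60.3 TPM with an interferon sum of 2295 TPM, and in siPKM2 replicate 3 it was at 97.5 TPM with a sum of 1107 TPM. The part of this response in the levels of the members was not tested.

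Cell type markers varied with replicate 2 and, in some lists, between the groups. The 6 osteoblast markers summed to between 2064 and 13587 TPM in siNC and between 741 and 4644 TPM in siPKM2, with Dmp1 below 0.5 TPM everywhere, and the sum was lower in siPKM2 within each replicate number. That sum is mainly Spp1, at 13556 TPM of the 13587 TPM in siNC replicate 2. Ibsp, Alpl and Sp7 were lowest in that library of the siNC group, while Bglap was highest there at 4.09 TPM. Between the libraries of replicate 2, Alpl went from 7.31 TPM in siNC to 17.14 TPM in siPKM2. Sp7 was level there, at 1.98 and 1.99 TPM, and the other osteoblast markers were lower in siPKM2. The 8 macrophage markers, 4 of which reached 1 TPM, summed to between 11.4 and 119 TPM in siNC and between 16.6 and 87.7 TPM in siPKM2, and the defining Adgre1 and Ptprc stayed below 0.5 TPM. The 6 endothelial markers summed to at most 3.15 TPM. The 6 synovial fibroblast markers all reached 1 TPM. They summed to between 173 and 435 TPM in siNC and between 342 and 532 TPM in siPKM2. The sum was higher in siPKM2 within each replicate number, as were Bax, Bak1 and Bcl2l1, but its genes did not move together. Within each replicate number Pdpn, Prg4 and Cd55 were higher in siPKM2, Thy1 and Pdgfra were lower, and Postn had no common direction. In such bulk samples a change in the share of a cell type and a change in RNA per cell cannot be told apart, and the part of these cells in the levels of the members was not tested.

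**Figure D5:**
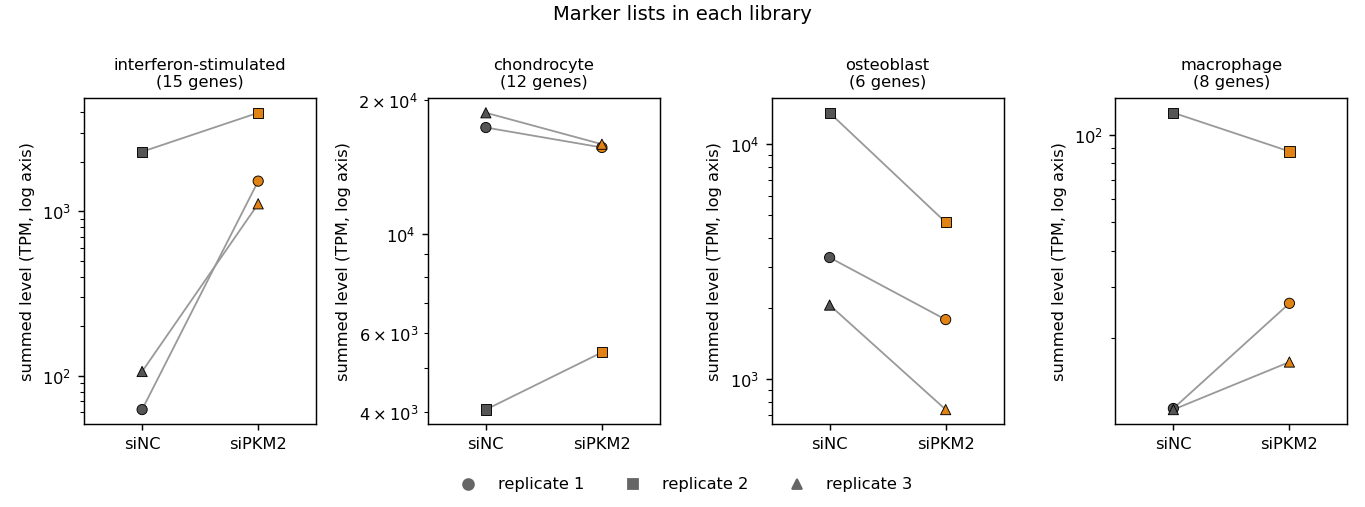
Summed TPM of 4 marker lists in each library, on log axes that differ between panels. Lines join libraries with the same replicate number. The interferon-stimulated sum is higher in siPKM2 within each pair, and replicate 2 has the highest or the lowest sum of its group in all 4 lists.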

How the data were processed

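RNA-seq libraries from 3 siNC and 3 siPKM2 cultures were analysed. The authors deposited estimated counts per gene, not normalized, 33.1% of the nonzero values fractional, and TPM values scaled to a common total per library. The table also holds group means and the authors' own comparison, which were not used. The submitters' notes name mm9 and edgeR, the table is named for DESeq2, and the aligner, counter and strand setting are not given in the sources used here. Positions were taken from GENCODE M21 on GRCm38 by gene ID, which matched 94.1% of IDs. The 6 files of single libraries held the same values as the table.

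Counts were rounded, and fits were run with edgeR 4.0.16 in R 4.3.3: filterByExpr, TMM factors, quasi-likelihood test, and Benjamini-Hochberg adjustment over the 15269 genes kept. The study's threshold was used, a fold over 2 and an adjusted p under 0.05. Rows without a gene name held 0.009% of counts. Libraries of a group differed beyond sampling noise in 52.9% to 73.5% of genes, so none was a duplicate. The labels do not say whether cultures came from separate animals, so p-values measure the spread between these libraries, which may be technical. Replicate numbers pair the libraries: deviations from the group means correlated at 0.664, 0.756 and 0.646 for equal numbers and at most at 0.158 for others. Blocked values stand beside the unblocked ones.

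Alternatives were DESeq2 1.42.0, limma 3.58.1 on log2(TPM + 1) and log2(TPM + 0.1), RLE and upper-quartile factors, other filters, the replicate block, and leaving libraries out. The named genes were the 10 members, Pkm, list genes that passed the blocked fit, Trp53 and Mdm2, and the 3 genes most like Bax and Bak1. The members and lists were chosen with earlier results of these data known. From the lists, 1 gene is not reported here, and Ddit3, with 2 IDs, was counted once, by the ID with more counts. The fits were tested on simulated data, in which no replicate was made to stand apart as replicate 2 did here.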

Additional observations from a re-analysis of the deposited data

How the results depend on the processing

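Over 18 alternatives, the log2 fold changes of Bak1 (0.94 to 1.09), Bax (0.61 to 0.89), Bok, Bcl2l1, Mcl1, Bid and Bcl2l11 kept their direction. By edgeR with the replicate block they were 1.02 for Bak1 (adjusted p = 0.00942) and 0.76 for Bax (adjusted p = 0.0165), and without replicate 2 in that fit 1.05 and 0.86. DESeq2 gave 1.03 for Bak1 (adjusted p = 6.5e-05) and 0.75 for Bax (adjusted p = 0.0265), and with the block 1.03 (adjusted p = 2.12e-14) and 0.77 (adjusted p = 4.08e-06). Genes called numbered 0 without the block, 890 with it, 3524 with it and no fold threshold, 430 by DESeq2, 1017 by DESeq2 with the block, 3 with upper-quartile factors, 9 with no filter, 3 with at least 10 counts in every library and 1 by limma with either pseudocount. Members called numbered 0 without the block, 1 with it, by DESeq2 and by DESeq2 with the block, and 3 with the block and no fold threshold. Of the listed apoptosis genes, 9 passed with the block and no fold threshold. Leaving out a library gave 0 to 105 genes and 0 members called, and leaving out a replicate number under the block gave 0 to 1639 genes, 0 to 3 members and 0 to 1 list genes. Each value above 0 came without replicate 2. Bcl2 was at 0.00 without replicate 2 under the block. Bbc3 reversed to 0.05 and 0.06 by limma, and lay between -0.15 and 0.16 with a library left out and up to 0.11 with a replicate left out under the block. Pmaip1 reversed to 0.34 with the block, 0.45 by DESeq2 with the block, and 0.24 and 0.40 by limma, and lay between -0.61 and 1.06 with a library left out and up to 1.23 with a replicate left out under the block. The difference in the effector to guardian ratio, 1.00, was 0.803 to 1.16 with a library left out, and 1.33 without Mcl1, where the ratio of group means fell from 1.34 to 1.18 and the groups overlapped. The causes were not tested. Between 33 and 441 counts a library limit Pmaip1, and 3 libraries a group limit every test.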
